A study of Mus musculus with 6 samples.

Results

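The BCL2 family sets whether a cell lives or enters apoptosis through its mitochondria. The data shown here are those of 10 family genes, taken by symbol from the 25965 rows of the deposited count table: the anti-apoptotic Bcl2, Bcl2l1 and Mcl1, the BH3-only genes Bcl2l11, Bbc3, Pmaip1, Bmf and Bid, and the effectors Bax and Bak1. All 10 had a row and all 10 passed the filter on low counts, as did 10896 rows in all.

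RNA was sequenced from 6 BCR-ABL positive mouse cell lines, 3 labelled Cdk6 wild type (WT1, WT2 and WT3) and 3 labelled Cdk6 knock out (KO1, KO2 and KO3). All lines carried BCR-ABL, the fusion kinase of the Philadelphia chromosome, and grew in RPMI medium with serum and 2-mercaptoethanol. Per the labels, cells were electroporated with a Cas9-GFP plasmid, either a control or a plasmid with guide RNAs against CDK6. GFP-positive cells were plated singly, so that a line is 1 clone. The labels do not say whether lines of the same number share a parental culture, and the p-values below measure the spread between these 6 lines.

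Anti-apoptotic BCL2 proteins hold the outer mitochondrial membrane intact by binding their pro-apoptotic relatives. BH3-only proteins carry stress signals: they occupy the anti-apoptotic proteins or activate BAX and BAK, which then open pores that release cytochrome c and start the caspases. In B cell precursors the balance of BIM (Bcl2l11) against BCL2, BCL-XL (Bcl2l1) and MCL1 governs survival, and BCR-ABL signalling is known to favour BCL-XL and to restrain BIM.

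Total counts ran from 17859519 to 24108563 per library, so that 3 counts corresponded to 0.125 to 0.165 CPM (counts scaled to the library size, here after TMM adjustment). Where 3 values are given for a group, they stand in the order of the line numbers 1, 2 and 3. The targeted transcript Cdk6 did not separate the groups: it had 39.7, 45.6 and 55.8 CPM in the WT lines and 41.3, 75.1 and 38.9 CPM in the KO lines, so KO and WT name the libraries as labelled wherever a direction is given. All 12 markers of the B lineage were at 1 CPM or more in every library, with a sum of 4140 to 5150 CPM. The summed T cell, erythroid and megakaryocytic, and stromal markers stayed at or below 9.22 CPM, and the myeloid ones lay between 20.1 and 47.3 CPM, with Lyz2 and Cd68 at 1 CPM or more in every library. Lyz2, the lysozyme of myeloid cells, separated the groups, with 38.9, 27.2 and 37.1 CPM in the WT lines and 12.2, 15.9 and 14.7 CPM in the KO lines (log2 fold change -1.27 ± 0.19, edgeR adjusted p = 0.479, DESeq2 adjusted p = 1.15e-05). Other myeloid markers did not separate the groups. Itgam lay at 28.9 CPM in KO1 and at 0.256 to 4.76 CPM elsewhere, and Cd68 lay at 3.07 to 4.82 CPM. Mpo was at or below 1.37 CPM, and Csf1r and Csf3r had at most 2 counts in any library. The part of myeloid cells, if any, in the results was not tested. Cd3e, Cd4, Cd8a, Elane and Col1a2 were at 0 counts in all libraries. Library KO2 stood apart, with 10.1% of tested genes at least 2-fold outside the range of the other 5 libraries, so fold changes that turned or moved by over 1.5 times without it are also given without it.

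No member passed the test of KO against WT. In edgeR's quasi-likelihood test their adjusted p ran from 0.532 to 0.985, and 0 of the 10 reached an unadjusted p under 0.05. Over all genes edgeR called 0.0% in either direction at an adjusted p of 0.05, limma-voom 0.0%, and 9.45% had an unadjusted p under 0.05. DESeq2 called 0.705% of genes higher and 1.24% lower in KO, and 0 of the 10 members. Bcl2, Pmaip1, Bmf and Bid ranged over at least 2-fold among the KO libraries, 4 of 10, as did 23.8% of tested genes. For Bcl2, Bmf and Bid, KO1 and KO3 lay less than 2-fold apart, so that range came from KO2.

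**Figure D1:**
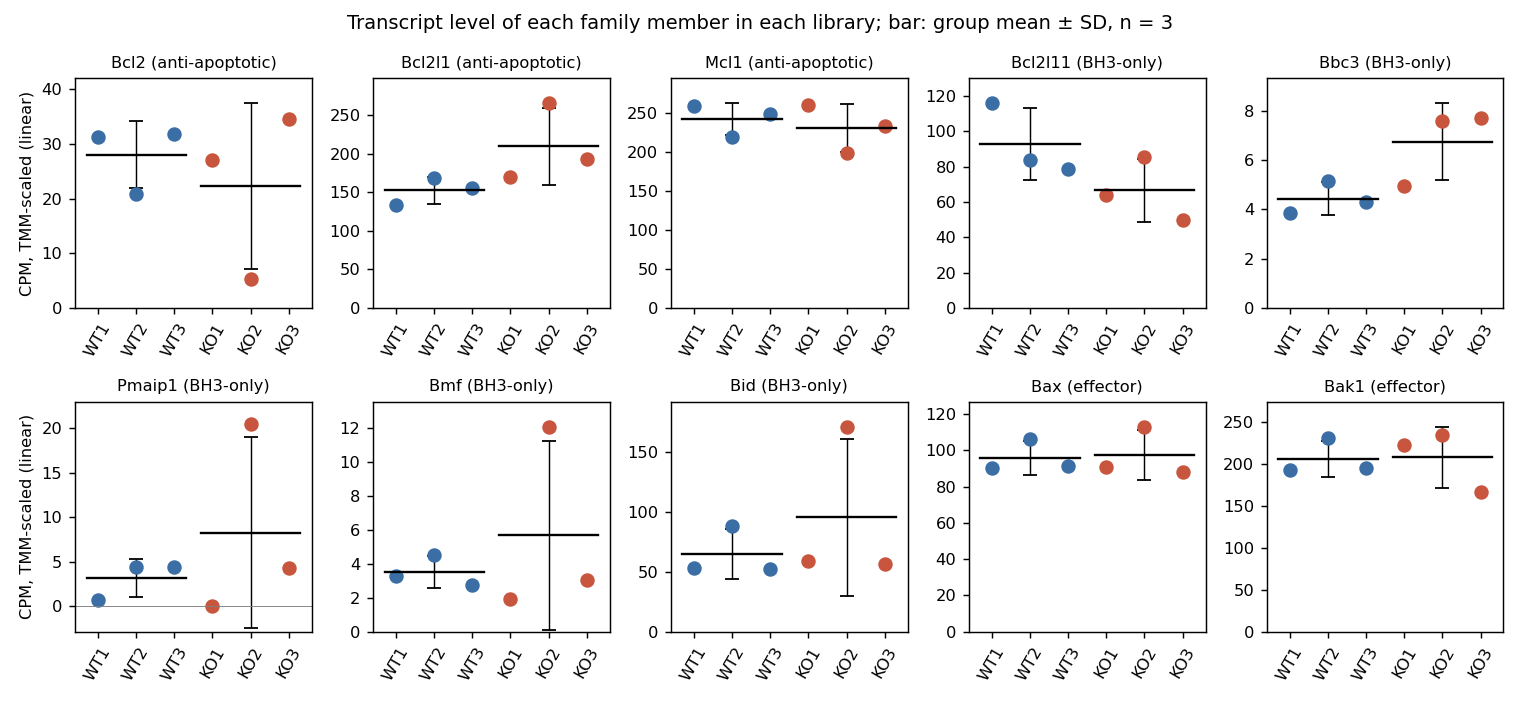
Level of the 10 family genes in each library, in TMM-scaled CPM on a linear axis, with blue points for WT, red points for KO, a line at each group mean and a bar of 1 SD (n = 3). KO2 is the lowest library for Bcl2 at 5.28 CPM and the highest for Pmaip1, Bmf and Bid at 20.5, 12.1 and 171 CPM, while Bax and Bak1 stay within a narrow range.

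Bcl2, the founding survival gene of the family, lay at 20.9 CPM or more in 5 lines and far lower in 1. It had 31.2, 20.9 and 31.8 CPM in the WT lines and 27.1, 5.28 and 34.5 CPM in the KO lines. KO2 was thus the lowest library, 3.96-fold below WT2, the next one up. KO1 lay among the WT values, and KO3 was the highest library. KO2 had 103 counts, with an exact 95% Poisson interval of 4.31 to 6.41 CPM that covers counting error only. The fitted log2 difference was -0.33 ± 0.65 (SE; 95% interval -1.93 to 1.28; edgeR adjusted p = 0.893). It was 0.14 without KO2, and -0.66 when the replicate number entered as a block. Bcl2 spans 106538176 to 106714290 on chromosome 1 (GRCm38), and its 6 neighbouring genes within 5 Mb of at least 5 CPM had a median log2 difference of 0.15 between KO2 and the mean of the other 5 libraries, against -2.41 for Bcl2 itself.

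Bcl2l1, which encodes the survival protein BCL-XL, was the only member whose groups did not overlap. Its levels were 134, 168.8 and 155.3 CPM in the WT lines and 170.1, 266 and 193.9 CPM in the KO lines. Every KO line exceeded every WT line, but KO1 exceeded WT2 by a small margin. Of all tested genes 8.58% had every KO library above every WT library, so 1 of 10 is near the background. In edgeR the log2 ratio of KO to WT was 0.46 ± 0.19 (SE; 95% interval -0.01 to 0.92; edgeR adjusted p = 0.532), and it was 0.26 ± 0.12 without KO2 (adjusted p = 0.291) and 0.34 ± 0.11 without WT2 and KO2 (edgeR adjusted p = 0.284). With the replicate number as a block the ratio was 0.44 ± 0.10 (95% interval 0.17 to 0.71; unadjusted p = 0.00975, edgeR adjusted p = 0.528), and DESeq2 gave 0.47 ± 0.20 (95% interval 0.07 to 0.87; unadjusted p = 0.0213, DESeq2 adjusted p = 0.292). An unadjusted p under 0.05 was found for 985 of 10896 genes with the block. DESeq2 had it for 1314 of the 25965 rows, which include 11635 at 0 throughout. Bcl2l1 is on chromosome 2 (152758732 to 152833803), where its 77 neighbours had a median KO2 difference of -0.08, against 0.70 for the gene.

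Mcl1, the short-lived survival protein that precursor B cells depend on, varied little. It had 258.7, 219.5 and 248.6 CPM in the WT lines and 259.5, 199.2 and 233.6 CPM in the KO lines. The groups overlapped, and WT2 and KO2 were the 2 lowest libraries. On the log2 scale KO minus WT was -0.07 ± 0.12 (SE; 95% interval -0.37 to 0.22; edgeR adjusted p = 0.871). Without KO2 the value was 0.03.

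Per unit of length, Bcl2l1 transcripts outnumbered those of Bcl2 in every line. With CPM divided by the length of the longest annotated transcript in kilobases, the ratio of Bcl2l1 to Bcl2 was 12.0, 22.6 and 13.7 in the WT lines and 17.6, 141 and 15.7 in the KO lines. KO2 alone had a ratio far above the rest, from more Bcl2l1 and less Bcl2 together. WT2 had the next highest ratio. These ratios are descriptions with no test.

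**Figure D2:**
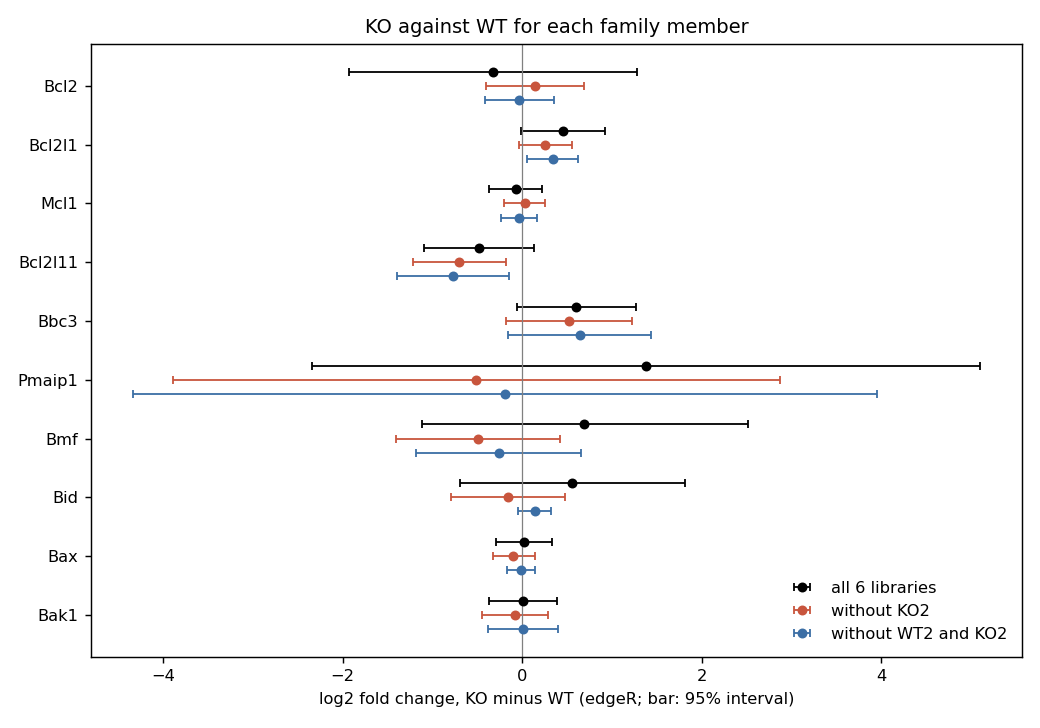
Log2 fold change of each member, KO minus WT, from edgeR with 95% intervals, over all 6 libraries (black), without KO2 (red) and without WT2 and KO2 (blue). Bcl2l11 stays below 0 and Bcl2l1 and Bbc3 above 0 in all 3 fits, whereas Bcl2, Mcl1, Pmaip1, Bmf, Bid, Bax and Bak1 have another sign without KO2, and no member passes the test in any of them.

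Bcl2l11 encodes BIM, the BH3-only protein that removes unfit B cell precursors. Its levels were 115.9, 83.6 and 78.8 CPM in the WT lines and 63.9, 85.6 and 49.9 CPM in the KO lines. KO1 and KO3 lay below all WT libraries, and KO2 lay between WT1 and WT2. Its log2 fold change in edgeR was -0.48 ± 0.25 (SE; 95% interval -1.09 to 0.13; adjusted p = 0.579). Without KO2 it was -0.70 ± 0.21 (SE; 95% interval -1.22 to -0.18; edgeR adjusted p = 0.212, unadjusted p = 0.0173). That fit had 2080 of 11043 genes at an unadjusted p under 0.05, against 1030 of 10896 with all 6 libraries. Leaving out WT1, the highest library, gave -0.29, and leaving out KO3, the lowest, gave -0.31. Bcl2l11 is on chromosome 2 at 128126038 to 128162547, and the median KO2 difference of its 71 neighbours was -0.12, against 0.18 for the gene.

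The ratio of Bcl2l11 to Bcl2l1, the BH3-only activator against its survival counterpart, was lower in each KO library than in each WT library. Per unit of length it was 0.441, 0.253 and 0.259 in the WT lines and 0.192, 0.164 and 0.131 in the KO lines. The means were 0.317 ± 0.107 in WT and 0.162 ± 0.0301 in KO (SD, n = 3). The pair was chosen after the values had been seen, and no test was made on the ratio. The ratio of Bcl2l11 to Mcl1 did not separate the groups, at 0.215 to 0.304 in WT and 0.167, 0.292 and 0.145 in KO1, KO2 and KO3.

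Bbc3 encodes PUMA, the BH3-only protein that is a main apoptotic target of p53, and had few reads. It had 92, 97 and 87 counts in the WT lines and 90, 148 and 163 counts in the KO lines, which is 3.84, 5.17 and 4.30 CPM against 4.94, 7.59 and 7.70 CPM. KO2 and KO3 lay above every WT library, and KO1 lay below WT2. The fitted log2 difference was 0.60 ± 0.27 (SE; 95% interval -0.06 to 1.27; edgeR adjusted p = 0.543), and between 0.50 and 0.79 when each library was left out in turn.

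Promoter windows of RefSeq (GRCm38.p6, 250 bases before to 50 after a start site) were held for 9 members, all but Pmaip1, with 16 windows in all, and were searched on both strands for 6 motifs. The search was made because Bcl2l11 and Bbc3 are known targets of FOXO factors, and Foxo1 had the smallest p-value among the transcription factors described further on. The FOXO site TGTTTAC, whose matches overlapped no match of another motif, was found in a window of Bcl2l11 and of Bbc3. It was in none of the other 7 members searched. That is 2 of the 16 windows, and 3.65% of all 32851 windows hold it. The E-box CACGTG, bound by MYC and MAX, was found in windows of Bbc3 and Bax, at 2 places in that of Bax, of which the one upstream of the start site is printed, and 7.15% of all windows hold it. The stretches are printed 5′ to 3′ on the strand of the gene, with the match in capitals. They are from chr2:128125788-128125847 (plus strand), chr7:16310064-16310130 (plus), chr7:16310337-16310402 (plus) and chr7:45466872-45466937 (minus), in the order of the lines.
Bcl2l11, FOXO site: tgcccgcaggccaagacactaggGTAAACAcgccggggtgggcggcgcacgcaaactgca
Bbc3, FOXO site: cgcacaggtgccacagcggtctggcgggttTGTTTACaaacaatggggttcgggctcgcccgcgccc
Bbc3, E-box: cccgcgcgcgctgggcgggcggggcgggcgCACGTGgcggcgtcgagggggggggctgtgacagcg
Bax, E-box: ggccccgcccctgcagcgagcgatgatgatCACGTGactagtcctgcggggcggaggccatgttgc

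The FOXO match begins 227 bases before the start site in the Bcl2l11 window and 167 bases before it in the Bbc3 window. The fold changes of both genes above had opposite signs, and neither passed the test. A part of FOXO factors in them was not tested. The E2F site TTCCCGC was found in 1 of the 16 windows, at Bbc3 (4.6% of all windows). None of the 16 held the GAS element TTCNNNGAA of STAT factors (8.3%), the cAMP response element TGACGTCA (1.79%) or the p53 response element (0.0731%). A match is only a match of letters, and no match says only that the letters are not in these windows.

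Pmaip1 encodes NOXA, a BH3-only protein that binds MCL1, and it was the member with the widest range over the lines. It had 18, 83 and 89 counts in the WT lines (0.751, 4.42 and 4.40 CPM) and 2, 399 and 91 counts in the KO lines (0.110, 20.5 and 4.30 CPM). KO2 was 4.63-fold above the highest other library, and KO1 lay under 3 counts, with an exact 95% Poisson interval of 0.0133 to 0.397 CPM. The range within WT alone was 5.89-fold, and the highest and the lowest of the 6 libraries were both KO. The log2 fold change of 1.38 ± 1.50 (SE; 95% interval -2.34 to 5.10; edgeR adjusted p = 0.797) rested on KO2: it was -0.51 without that library, 0.20 when the replicate number entered as a block and 0.07 in limma-voom. Pmaip1 is on chromosome 18, where its 29 neighbours had a median KO2 difference of -0.50, the opposite sign to its own 3.52.

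Bmf, a BH3-only gene linked to detachment and cytoskeletal stress, was low in 5 lines and higher in 1. It had 3.25, 4.53 and 2.72 CPM in the WT lines and 1.92, 12.1 and 3.02 CPM in the KO lines. KO2 was 2.66-fold above WT2, the next highest, and KO1 was the lowest library. In edgeR the log2 ratio of KO to WT was 0.69 ± 0.73 (SE; 95% interval -1.12 to 2.51; edgeR adjusted p = 0.793), and it was -0.49 without KO2 and 0.28 with the block. Its 75 neighbours on chromosome 2 had a median KO2 difference of 0.03, against 1.97 for Bmf.

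Bid, which caspase 8 cleaves to pass death receptor signals to the mitochondria, had 52.97, 88.3 and 52.5 CPM in the WT lines and 58.8, 170.8 and 56.6 CPM in the KO lines. KO2 was 1.93-fold above WT2, and the other 4 libraries lay within 52.5 to 58.8 CPM. On the log2 scale KO minus WT was 0.56 ± 0.50 (SE; 95% interval -0.69 to 1.81; edgeR adjusted p = 0.75), with -0.16 when KO2 was left out and 0.14 when WT2 was left out as well. Bid is on chromosome 6 (120893119 to 120917062). Its 61 neighbours had a median KO2 difference of 0.69, with quartiles of 0.35 and 1.01, and 55 of the 61 were above 0. Bid, at 1.49, lay above the upper quartile. The part of that neighbourhood in the level of Bid was not tested. Bid also shares 628 exon bases with Bcl2l13 on the opposite strand, and the strand setting of the counting is not given in the sources used here.

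**Figure D3:**
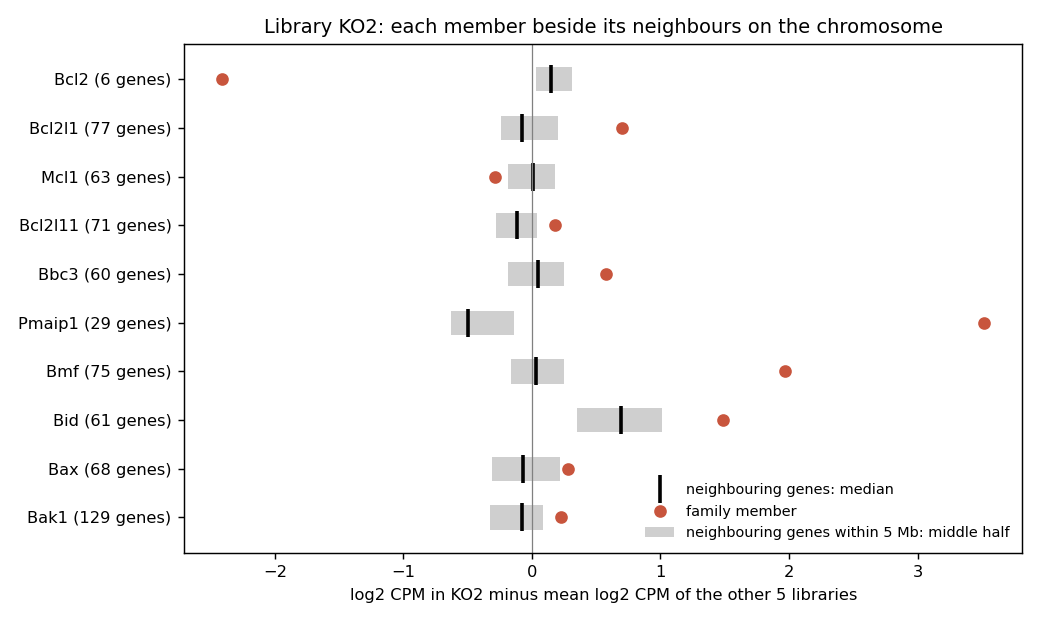
Log2 CPM in KO2 minus the mean log2 CPM of the other 5 libraries, for each member (red point) and for the genes within 5 Mb of it (black mark at the median, grey bar from the lower to the upper quartile). The neighbours of Bid are shifted upward by a median of 0.69 and those of Pmaip1 downward by 0.50, and for Bcl2, Pmaip1 and Bmf the member lies far outside the grey bar.

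Neither effector varied much. Bax, which moves from the cytosol to the mitochondria to form pores, had 90.1, 106.6 and 91.2 CPM in the WT lines and 90.8, 113.1 and 88.1 CPM in the KO lines. WT2 and KO2 were its 2 highest libraries, and the groups overlapped. Bak1, which sits in the mitochondrial membrane, had 192.8, 230.5 and 195 CPM in the WT lines and 222.1, 235.1 and 166.2 CPM in the KO lines. Its lowest and highest libraries were both KO. The log2 fold changes were 0.02 ± 0.13 for Bax (95% interval -0.29 to 0.33; edgeR adjusted p = 0.972) and 0.01 ± 0.15 for Bak1 (95% interval -0.37 to 0.39; edgeR adjusted p = 0.985). Without KO2 they were -0.10 for Bax and -0.08 for Bak1. A p that misses the threshold does not show equal levels, and the intervals give the changes that these data leave possible. Bak1 shares 614 exon bases with Ggnbp1 on the opposite strand. Bax shares 192 exon bases with Gm45808 on the same strand, a gene that has no row in the count table.

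Across the members, KO2 often lay at an extreme. It was the highest of the 6 libraries for 6 of 10 members and the lowest for 2, as it was for 31.1% and 33.5% of tested genes. KO2 lay at least 2-fold outside the other 5 for 3 of 10 members, 2 above (Pmaip1 and Bmf) and 1 below (Bcl2), where 3.15% of tested genes lay above, 6.95% below and 10.1% either way. In 9 of 10 members WT2 and KO2 lay on the same side of both WT1 and WT3, as they did in 56.5% of tested genes. Bcl2l11 was the exception. For Pmaip1, the margin of WT2 over WT3 was 4.42 against 4.40 CPM. The median log2 fold change of the members was 0.24 over all libraries and -0.09 without KO2, against 0.01 over all tested genes in both fits. In a bulk library, fewer cells with a transcript and less of it per cell cannot be told apart.

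Levels were then compared between members per unit of length, first with the longest annotated transcript. Bax and Bak1 were at 87.2 ± 8.38 and 86.3 ± 8.87 CPM per kilobase in WT (SD, n = 3) and at 88.5 ± 12.5 and 87.0 ± 15.3 in KO. Mcl1 lay at 70.9 ± 5.95 and 67.5 ± 8.85, Bcl2l1 at 59.5 ± 6.83 and 81.8 ± 19.4, and Bid at 26.8 ± 8.51 and 39.5 ± 27.0. The order of these 5 genes depended on the length used. With the median length of the annotated transcripts Bax exceeded Bak1 by more than either SD in WT (142 ± 13.7 against 105 ± 10.8 CPM per kilobase), where the longest transcript showed no such gap, and Bid moved up in rank to 115 ± 36.5 in WT and, as the highest mean, 170 ± 116 in KO. Bcl2l11 came below these 5 by its mean with either length, at 18.4 ± 4.00 and 13.2 ± 3.56 with the longest. It did not differ from Bid beyond the larger SD there. Bcl2 (3.89 ± 0.851 and 3.10 ± 2.11), Bbc3 (2.45 ± 0.372 and 3.72 ± 0.862), Pmaip1 (1.17 ± 0.775 and 3.04 ± 3.94) and Bmf (0.754 ± 0.200 and 1.22 ± 1.20) made up the low end with either length. Their order in WT was not fixed either: with the median length Bbc3 (6.49 ± 0.987) had a higher mean than Bcl2 (5.58 ± 1.22), and Bmf (5.44 ± 1.44) exceeded Pmaip1 (1.26 ± 0.834) by more than either SD.

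The 3 anti-apoptotic genes made up 37.7 ± 2.84% of the summed length-scaled signal of the 10 members in WT and 39.7 ± 4.56% in KO (SD, n = 3), a difference within the spread. Without KO2 the KO share was 42.1 ± 2.55% (n = 2), from 40.3% in KO1 and 44.0% in KO3. The WT lines had 38.6, 34.5 and 40.0%, so KO1 lay close to WT3. An SD of 2 lines is a weak measure of spread. The effectors held 48.5 ± 1.53% and 45.3 ± 2.82%. The BH3-only genes held 14.0, 15.2 and 12.2% in the WT lines and 11.1, 21.9 and 11.8% in the KO lines. KO2 had the largest BH3-only share, mostly from Bid, at 15.2% against 6.32 to 9.50% in the other libraries. The division within the survival genes also differed by line: Bcl2l1 took 15.2, 17.1 and 17.6% in WT and 18.3, 22.2 and 22.3% in KO, and Mcl1 took 12.5% in KO2 against 16.7 to 22.1% elsewhere. No test was made on these shares. Those of single genes depend on the length used, and so do the totals of the BH3-only genes and of the effectors. With the median length of the annotated transcripts in place of the longest, the shares of Bcl2l11, Bbc3, Bmf, Bid, Bax and Bak1 moved by more than their SD in both groups. In WT the share of Bid went from 7.41 to 17.4%, that of Bmf from 0.209 to 0.828% and that of Bak1 from 24.1 to 16.1%. That of Bax went from 24.4 to 21.9%. The 17.4% of Bid alone is above the whole BH3-only share of each WT line with the longest transcript. The anti-apoptotic genes held 35.2 ± 3.28% in WT and 36.6 ± 6.14% in KO with the median length.

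**Figure D4:**
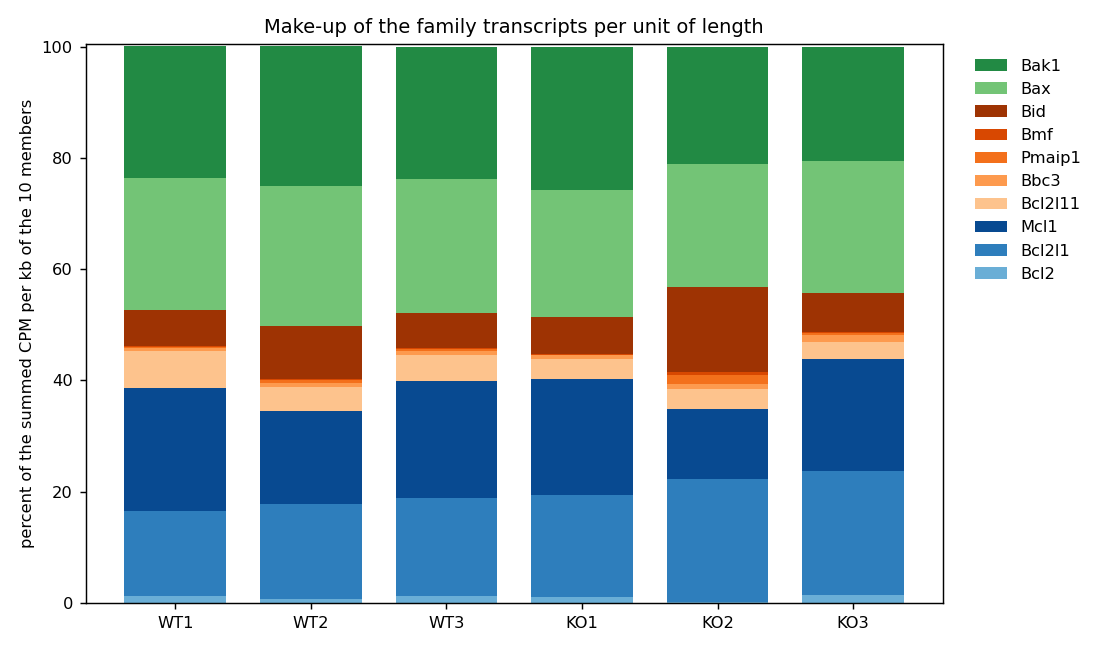
Stacked percent of the summed CPM per kilobase of the 10 members in each library, with survival genes in blue, BH3-only genes in orange and effectors in green. Lengths are those of the longest annotated transcript, and the make-up depends on that choice. In KO2 the BH3-only share is 21.9% against 11.1 to 15.2% in the other libraries, and the Bcl2 band shrinks to 0.158%.

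For the 3 members with the widest range, the tested genes with the most similar pattern over the 6 libraries were sought, by the root mean square difference of centred log2 CPM. For Bcl2 these were Thsd1 (difference 0.115), Prkar2a (0.136) and Fcrl1 (0.143), among 8746 genes with a median difference of 0.939. Thsd1 lay at 13.6 to 27.3 CPM in 5 libraries and 3.80 CPM in KO2. For Bmf they were Chst12 (0.156), Xbp1 (0.171) and Dennd3 (0.178). Xbp1, a transcription factor of the unfolded protein response, lay at 64.6 to 104 CPM in 5 libraries and 283 CPM in KO2. For Pmaip1 they were Nebl (0.486), Lrp4 (0.803) and Gja1 (0.803). Nebl had the same order at the extremes as Pmaip1, with 13.1, 57.1 and 60.6 CPM in the WT lines and 3.46, 123 and 70.3 CPM in the KO lines. With 6 libraries and KO2 at an extreme, such likeness describes these lines only.

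The rest of the family was sparse. Of 16 other family genes 8 were tested, and the remaining 8 were at or near 0 counts: Bcl2a1a, Bcl2a1c, Bcl2l10, Bik and Hrk had 0 in all libraries, and Bcl2a1b, Bcl2a1d and Bcl2l14 had at most 8 in any. The Bcl2a1 genes are near copies that may share reads. Reads shared between copies may have been left out of the counts, so the values near 0 do not show that Bcl2a1, another group of survival genes, lacked transcript. Bcl2l2, the survival gene of BCL-W, had 24.9, 21.0 and 22.5 CPM in the WT lines and 28.9, 25.7 and 41.2 CPM in the KO lines. Its groups did not overlap, and its log2 fold change was 0.49 ± 0.20 (SE; edgeR adjusted p = 0.532), or 0.26 without KO3.

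Bok, the third pore-forming relative of Bax and Bak1, showed the clearest separation in the family. It had 85.5, 86.7 and 98.9 CPM in the WT lines and 57.4, 46.3 and 60.1 CPM in the KO lines. Every KO library lay well below every WT library. Its log2 fold change in edgeR was -0.73 ± 0.12 (SE; 95% interval -1.03 to -0.42), with an edgeR adjusted p of 0.479 and a DESeq2 adjusted p of 0.00041. It ran from -0.80 to -0.62 when each library was left out in turn. Bcl2l13, a mitochondrial family member (0.16 ± 0.08, adjusted p = 0.572 in edgeR), and the BH3-only Bad (-0.11 ± 0.09, edgeR adjusted p = 0.716; -0.07 without WT2) also had groups that did not overlap. Over the 8 tested genes 2 were higher and 2 lower in every KO library, where 8.58% and 11.0% of tested genes were.

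Downstream of the pores, 18 of 18 genes for the apoptosome, caspases and their inhibitors were tested, with a median log2 fold change of -0.01 and 0 calls by edgeR or DESeq2. Aifm1, a flavoprotein of the space between the mitochondrial membranes, averaged 118.3 ± 2.95 CPM (SD) in WT against 102.4 ± 3.60 CPM in KO (n = 3 each; -0.21 ± 0.06, edgeR adjusted p = 0.481). Endog, a mitochondrial nuclease, lay at 12.4 ± 2.40 and 7.31 ± 2.24 CPM (-0.77 ± 0.30, edgeR adjusted p = 0.528). Birc6 (0.26 ± 0.10) and Birc3 (0.49 ± 0.25), both of the inhibitor of apoptosis family, had positive values, and that of Birc3 was 0.18 without KO2. Groups did not overlap for Aifm1, Endog and Birc6, 3 of 18, where 19.6% of tested genes had no overlap in either direction.

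Of 11 death receptor and adaptor genes 9 were tested, 5 with a positive and 4 with a negative log2 fold change, and 0 were called. Fadd, the adaptor that recruits caspase 8, had 16.5, 16.8 and 14.9 CPM in the WT lines and 13.7, 11.2 and 12.1 CPM in the KO lines (-0.38 ± 0.14, edgeR adjusted p = 0.507). Its KO libraries all lay below its WT libraries, as for 1 of the 9 genes and 11.0% of all tested genes. Cflar, the gene of the caspase 8 inhibitor FLIP, had a log2 fold change of 0.50 ± 0.22, Casp8 of 0.10 ± 0.07 and Tradd of -0.10 ± 0.11. Without KO2 the values of Cflar and Tradd were 0.33 and -0.05. Casp8 was at 0.05 without WT1, and Tradd at -0.03 without WT2.

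Among 17 tested regulators of the family proteins, 13 had a value below 0, and the median log2 fold change was -0.07, against 0.01 for all genes. Some of the 13 were very small, such as Btrc at -0.01 and Opa1 at -0.02. Every KO library lay below every WT library in 3 of the 17 (Vdac2, Mtch2 and Dynll1), where 11.0% of tested genes did so. Vdac2, a channel of the outer mitochondrial membrane that binds BAK, had 302.2, 308.6 and 307.4 CPM in the WT lines and 267.2, 253.8 and 256.1 CPM in the KO lines. The difference of -0.24 ± 0.05 on the log2 scale was small, and it was present in each KO library (edgeR adjusted p = 0.479; DESeq2 adjusted p = 0.000511). Mtch2, the mitochondrial receptor of truncated BID, behaved alike, with 145.6 to 148.4 CPM across WT and 121.5 to 128.8 CPM across KO (-0.23 ± 0.06; edgeR adjusted p = 0.479; DESeq2 adjusted p = 0.0137). Dynll1, the dynein light chain to which BIM binds, had a value of -0.19 ± 0.06, and Bag6 of -0.12 ± 0.07. Without KO2 or any other single library the sign of these 4 genes stayed negative, and Bag6 was at -0.06 without KO3.

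Of the 15 tested transcription factors known to act on family genes, 10 had a positive log2 fold change. The median was 0.13, against 0.01 for all tested genes. Foxo1, which activates Bcl2l11 and Bbc3 in many cells, had 116, 132.4 and 121.6 CPM in the WT lines and 174.2, 164.9 and 182.1 CPM in the KO lines. Its groups were far apart relative to their spread, with a log2 fold change of 0.49 ± 0.08 (edgeR adjusted p = 0.479; DESeq2 adjusted p = 8.73e-06). Bcl2l11 had 92.8 ± 20.2 CPM (SD, n = 3) across WT and 66.5 ± 17.9 CPM across KO. Bbc3 had 4.43 ± 0.674 and 6.74 ± 1.56 CPM. Both hold a FOXO site in a window, and a link of Foxo1 to either gene was not tested. Pax5 (0.13 ± 0.06), Ebf1 (0.35 ± 0.23) and Bcl6 (-0.70 ± 0.45), B lineage regulators, completed the genes named by rule. Without KO2, Ebf1 was at 0.06 and Bcl6 at -0.36, and without KO1 Bcl6 was at -1.07. Gfi1, a transcriptional repressor named after its values had been seen, lay at 16.8 to 51.9 CPM in 5 libraries and at 0.103 CPM, under 3 counts, in KO2.

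**Figure D5:**
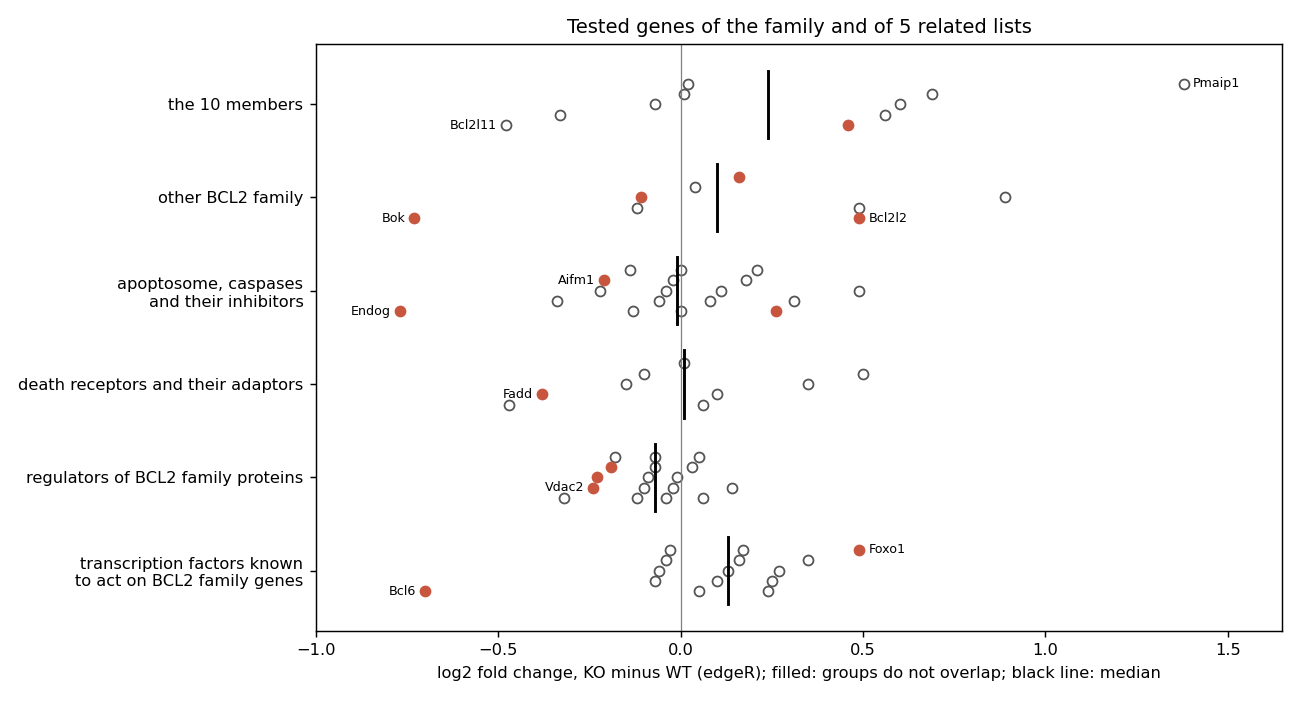
Log2 fold change, KO minus WT, of every tested gene of the family and of the 5 related lists, with filled points where the KO and WT libraries do not overlap and a black line at each list's median. Bok and Endog lie lowest at -0.73 and -0.77 and Foxo1 stands at 0.49, while the widest values of the 10 members, such as 1.38 for Pmaip1, come from groups that overlap.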

How the data were processed

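RNA of 6 lines was extracted and prepared with a TruSeq RNA kit, per the labels' protocols. The deposited table holds raw counts per gene symbol, 1 column per library, as the authors made them, not normalized. The submitters' processing notes name Trim Galore, STAR, DESeq2 and GRCm38. Versions, the program and annotation used for counting, and its strand mode are not given in the sources used. Counts per gene do not tell isoforms apart, such as the long and short forms of Bcl2l1 or Mcl1.

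Total counts were 17859519 to 24108563 per library. Rows that repeat a symbol (66) were left separate, and 11635 rows were at 0 throughout. edgeR 4.0.16 in R 4.3.3 was fitted over all 6 libraries: TMM scaling, filterByExpr on genotype, robust quasi-likelihood F test, two-sided, Benjamini-Hochberg adjusted p under 0.05 over 10896 genes. The SE is the log2 fold change divided by the square root of F. Alternatives were RLE size factors, library totals, DESeq2 1.42.0 (14753 rows without an adjusted p were not counted), limma-voom 3.58.1, other low-count filters, a fit that was not robust, a block for the replicate number, each library left out in turn, and WT2 and KO2 left out together. The fits were also run on counts simulated from the gene means and fitted dispersions of these data. No simulated line was set apart as KO2 is, so that run does not show how the tests perform here.

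The members, the lists and the alternatives were chosen with earlier results of these data known. Named by rule were all members, then from each list the 4 genes of at least 1 mean CPM with the smallest p, then for the 3 members with the widest range the 3 nearest patterns among genes of at least 5 mean CPM. Neighbours are genes of at least 5 mean CPM within 5 Mb, on log2(CPM + 0.125). Lengths came from GENCODE M21 and positions from RefSeq, both of GRCm38.

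WT and KO share replicate numbers in the labels. Deviations from the group mean correlated across genes at 0.33, 0.64 and 0.46 for numbers 1, 2 and 3, each above 0.1, which met the criterion for using the number as a pair in a blocked fit. No label ties a number to a shared culture. Lines of unlike number also passed 0.1, at 0.41 for WT1 with KO3 and 0.36 for WT3 with KO1. Both lay above the 0.33 of number 1, so meeting the criterion does not show that the numbers are pairs.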

Additional observations from a re-analysis of the deposited data

How the results depend on the processing

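No setting called a member: edgeR called 0 genes in either direction over all its settings, limma-voom called 0 (1041 had an unadjusted p under 0.05). DESeq2 had 79 genes higher and 139 lower in KO, 0 of them members. In DESeq2 the list genes Bok, Vdac2, Mtch2 and Foxo1 passed. With the replicate block edgeR called 0 genes (985 at an unadjusted p under 0.05, against 1030 without it), so the pairing changed no call. The genes without overlap between the groups and those at least 2-fold outside in KO2 stayed within 1.5 times their counts under RLE size factors and library totals. Without WT2 and KO2 the log2 fold change turned to -0.19 for Pmaip1, -0.26 for Bmf, -0.01 for Bax and 0.02 for Tradd. When each library was left out in turn, it ran from -0.79 to 0.14 for Bcl2, -0.16 to 0.03 for Mcl1, -0.51 to 1.95 for Pmaip1, -0.49 to 1.10 for Bmf, -0.16 to 0.86 for Bid, -0.10 to 0.10 for Bax and -0.08 to 0.15 for Bak1. Leaving out KO2 turned the sign of these 7 members and leaves 2 KO libraries. Bcl2l1 (0.26 to 0.59), Bcl2l11 (-0.70 to -0.29) and Bbc3 (0.50 to 0.79) kept their sign. Under 100 counts, as for Bbc3, Pmaip1 and Bmf in most libraries, counting error is a sizeable part of the spread.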

Other observations

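Several genes around the family lay at least 2-fold outside the other 5 libraries in KO2, and are given as values, named after they had been seen. Bnip3, a mitochondrial family relative induced by low oxygen, lay at 57.0 CPM in KO2 and at 4.72 to 19.3 CPM elsewhere. Bcl2l12 lay at 17.1 CPM in KO2 and at 37.4 to 46.5 CPM elsewhere. Dynll2, the dynein light chain to which BMF binds, lay at 44.0 CPM against 97.2 to 123.8 CPM. The death receptor Fas had 0 counts in KO2, under a floor of 0.154 CPM, and lay at 0.426 to 1.81 CPM elsewhere. The death receptor Tnfrsf10b lay at 0.256 CPM against 0.823 to 1.23 CPM. Of the 67 tested genes of the 5 related lists, 1 lay above and 7 below, where 3.15% and 6.95% of tested genes did.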
